A study of Mus musculus with 8 samples.

Results

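The 10 genes described here encode proteins that take long-chain fatty acids into cells, carry them through the cytosol and activate them: the uptake receptor Cd36, the fatty acid-binding proteins Fabp1, Fabp2 and Fabp4, the fatty acid transport proteins Slc27a1, Slc27a2, Slc27a4 and Slc27a5, and the long-chain acyl-CoA synthetases Acsl1 and Acsl5. They were chosen by name, with earlier results of these data known, and each has 1 row among the 25239 gene symbols of the count files. The samples are 8 livers of adult male mice, all homozygous for the floxed Smo allele (Smo tm2Amc/J) on a C57Bl6/J background and all given a choline-deficient, L-amino acid-defined high-fat diet (CDA-HFD, 60 kcal% fat) for 6 weeks. Through the tail vein, 4 mice (control) received AAV8-TBG-Luciferase and 4 mice (Smo-KO) AAV8-TBG-Cre, 1 week before sacrifice. The labels name the control genotype WT, although the design text describes floxed mice in both groups. TBG is a promoter active in hepatocytes, whereas the RNA came from whole liver, so reads from other liver cells, in which the promoter is not expected to act, are part of every value. No diet-matched mice without the floxed allele and no mice on another diet were part of this comparison.

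Long-chain fatty acids reach hepatocytes from the blood, bound to albumin or released from lipoproteins by lipases. Transport proteins of the SLC27 (FATP) family and the scavenger receptor CD36 promote their entry, FABPs bind them inside the cell, and acyl-CoA synthetases couple them to coenzyme A, which traps them and commits them to oxidation or to triglyceride and phospholipid synthesis. Many of these genes are known targets of PPARα, the fatty acid-sensing nuclear receptor of hepatocytes, and of its relative PPARγ.

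Whole-gene counts of Smo, the Hedgehog signal transducer targeted in this design, were 8.17, 8.49, 8.74 and 8.21 CPM (reads scaled to 1000000 reads on genes) in control livers 1 to 4 and 5.67, 3.93, 4.27 and 4.37 CPM in Smo-KO livers 1 to 4. The groups did not overlap, and Smo-KO liver 1 was nearest to the controls. Smo was lower in 4 of 4 Smo-KO livers (log2 fold change -0.88, SE 0.16, unadjusted p = 0.0001, adjusted p = 0.0957 in edgeR). Reads on the excised part of Smo were not counted separately. The depth was even, with 8203299 to 9999732 reads on genes per liver, and 3 reads, the upper limit that a count of 0 allows, correspond to 0.297 to 0.366 CPM.

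Across the 10 genes, 4 had a higher level in Smo-KO livers at an unadjusted p under 0.05 (Fabp1, Slc27a1, Slc27a2 and Acsl1) and 1 a lower level (Acsl5), whereas Cd36, Fabp2, Fabp4, Slc27a4 and Slc27a5 were past this threshold in neither direction. Of all 12977 genes tested, 13.8% were past the same threshold, 6.7% with a higher and 7.15% with a lower level. Since the 10 genes were chosen with earlier results known, the counts and shares are a description and no test of the set. No gene of the table, and so none of the 10, passed an adjusted p of 0.05 in edgeR, where the lowest adjusted p was 0.0785 and 1797 genes had an unadjusted p under 0.05. DESeq2, run on the same genes, called 163 genes, which is 1.36% of the 11967 genes it gave an adjusted p, with Slc27a1 as the only one of the 10. All 10 passed the filter on low counts. Their median log2 fold change was 0.22, with 6 positive and 4 negative, beside a median of -0.00084 over all genes tested. Groups that did not overlap were seen for Slc27a1 (higher) and Acsl5 (lower), and for 7.37% of all genes, 3.03% higher and 4.34% lower. Fold changes below are log2 ratios of Smo-KO over control, with p-values from the same edgeR fit.

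**Figure D1:**
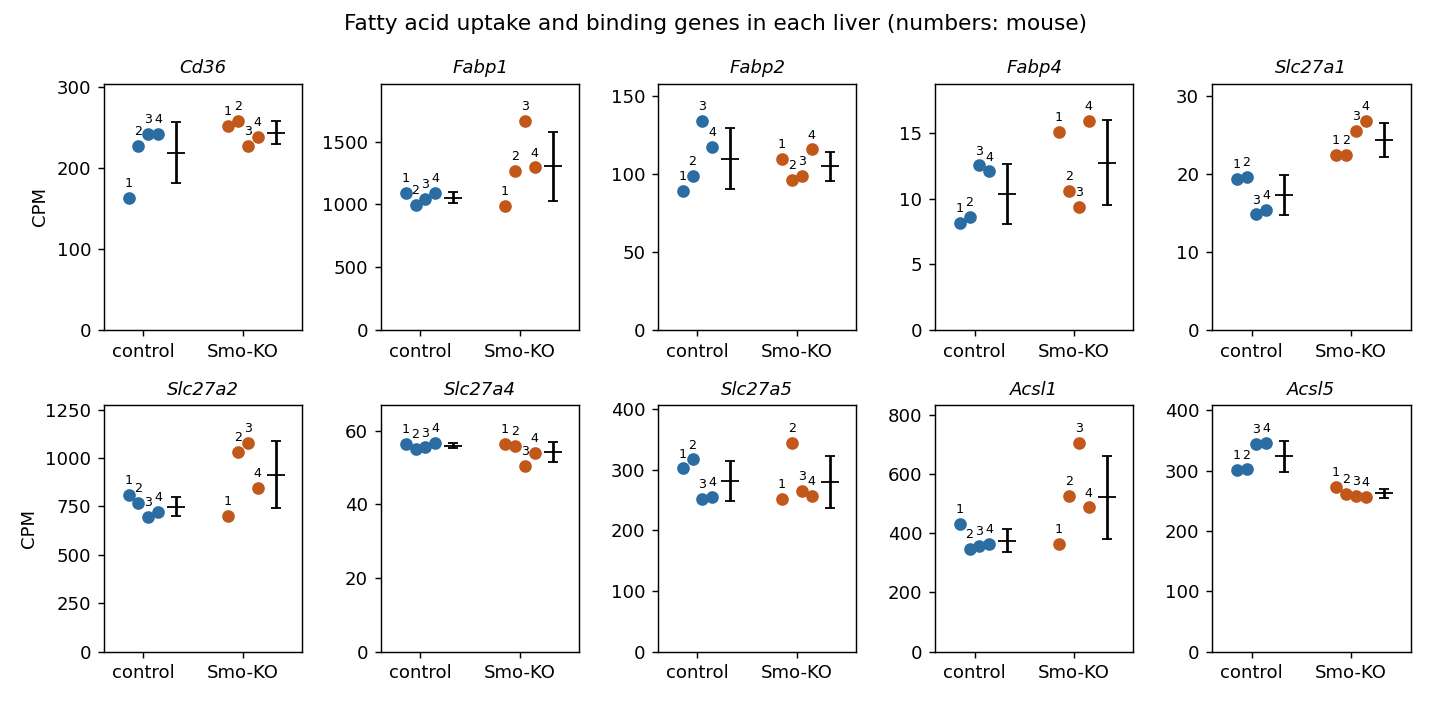
CPM of each of the 10 genes (y axes start at 0) in the 4 control (blue) and 4 Smo-KO (orange) livers, with the mouse number above each point and the group mean ± SD in black. Slc27a1 and Acsl5 are the panels in which the groups do not overlap, and in Fabp1, Slc27a2 and Acsl1 Smo-KO liver 1 lies among or below the controls while Smo-KO liver 3 is highest.

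Levels between genes were compared in control livers as CPM per kb of exon, with all annotated exons of a gene merged. Fabp1, the main cytosolic fatty acid carrier of hepatocytes, stood first at 1908 ± 81.2 CPM per kb (SD, n = 4). Slc27a2, a transporter with very-long-chain acyl-CoA synthetase activity, followed at 199 ± 13.2 CPM per kb (SD, n = 4). The control ranges of these genes did not overlap, and Fabp1 was 9.57 times higher.

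Slc27a5, a liver transport protein that also conjugates bile acids to coenzyme A, was at 115 ± 13.5 CPM per kb and Fabp2, best known from the intestine, at 114 ± 20.5 CPM per kb (n = 4 each, SD). Acsl5 was at 66.5 ± 5.12 and Cd36 at 60.8 ± 10.5 CPM per kb (n = 4 each, SD). Neither pair of neighbours differed beyond the spread between livers. Acsl1, the synthetase usually described as the major one of liver, was at 35.8 ± 3.68 CPM per kb, and Slc27a4 at 12.7 ± 0.170 CPM per kb (n = 4 each, SD). At the low end, Slc27a1 (2.96 ± 0.440) and Fabp4 (2.30 ± 0.506 CPM per kb, n = 4 each, SD), which are best known from muscle and adipose tissue, overlapped. In Smo-KO livers the ranges of Cd36 and Acsl1 overlapped too, while those of Slc27a1 and Fabp4 were apart.

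This order depended on how length was counted. With the longest protein-coding transcript of each gene, Acsl1 (3897 in place of 10483 bases) had 96.2 CPM per kb in control livers and ranked above Acsl5 (76.2 CPM per kb) and Cd36 (64.3 CPM per kb). Likewise Fabp4 (896 in place of 4489 bases) had 11.5 CPM per kb and ranked above Slc27a1 (6.18 CPM per kb). Fabp1, Slc27a2, Slc27a5 and Fabp2 held the first 4 ranks under each length rule.

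**Figure D2:**
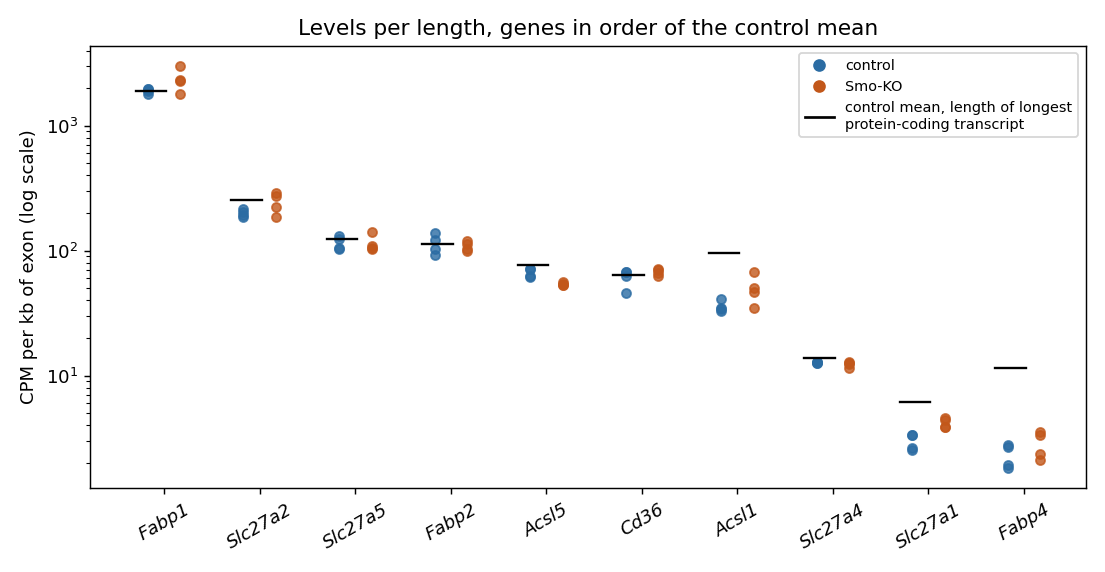
CPM per kb of merged exons (log scale) for each control (blue) and Smo-KO (orange) liver, with genes in the order of the control mean and black lines at the control mean with the length of the longest protein-coding transcript. Fabp1 stands 9.57 times above Slc27a2, and the black lines of Acsl1 and Fabp4 lie farthest above their points.

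Cd36 (chr5:17781690-17888801, minus strand, GRCm38), a scavenger receptor that binds fatty acids and oxidized lipoproteins, was at 163, 227, 242 and 242 CPM in control livers 1 to 4 and at 251, 258, 227 and 238 CPM in Smo-KO livers 1 to 4. Control liver 1 was lowest and the other 7 livers overlapped. The log2 fold change was 0.16 (SE 0.12, unadjusted p = 0.217, adjusted p = 0.594 in edgeR), and 0.04 without control liver 1. Cd36 is also made by endothelial cells and macrophages, whose markers are given below.

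Fabp1 (chr6:71199827-71205023, plus strand) was at 1091, 996, 1044 and 1089 CPM in control livers 1 to 4 and at 988, 1264, 1663 and 1295 CPM in Smo-KO livers 1 to 4. Smo-KO livers 2, 3 and 4 were above every control, and Smo-KO liver 1 was below them all. The log2 fold change was 0.30 (SE 0.13, unadjusted p = 0.0384, adjusted p = 0.331 in edgeR; higher than the control mean in 3 of 4 Smo-KO livers). It was 0.42 (unadjusted p = 0.0027) without Smo-KO liver 1 and 0.16 (unadjusted p = 0.159) without Smo-KO liver 3. Fabp1 missed the unadjusted threshold in 6 of the 8 fits that left out 1 liver (control livers 2, 3 and 4 and Smo-KO livers 2, 3 and 4). A fit that blocked same-numbered livers missed it too (log2 fold change 0.28).

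RefSeq promoters on the files' build, spanning 250 bases before and 50 after the start, were on hand for 8 of the 10 genes (Fabp4 and Slc27a5 were not analysed here), 11 promoters in all. Nuclear receptors of the PPAR and RXR kind bind pairs of the half-site AGGTCA arranged as a direct repeat with 1 base between them. On either strand the half-site AGGTCA (reverse complement TGACCT) occurred in 16.3% of 32851 promoters of this length, and in 3 of the 11 promoters, those of Cd36, Fabp1 and Slc27a2. The repeat AGGTCANAGGTCA was in 0.0396% of the promoters and in none of the 8 genes, and AGGNCANAGGNCA, loosened after the Fabp1 letters were seen, in 0.381%. The loosened motif contains AGGTCA as one of its forms, so the matches overlap. Since it was written to take the Fabp1 letters, its match in Fabp1 was fixed beforehand and its share says nothing of how rare that match is; it starts at base -67 from the RefSeq start, which lies inside the first exon of the longer GENCODE model. The stretch of Fabp1 upstream of that exon (chr6:71199629-71199826, plus strand, GRCm38.p6) is shown because it ends in these letters, with the 13 bases in capitals:
Fabp1 upstream: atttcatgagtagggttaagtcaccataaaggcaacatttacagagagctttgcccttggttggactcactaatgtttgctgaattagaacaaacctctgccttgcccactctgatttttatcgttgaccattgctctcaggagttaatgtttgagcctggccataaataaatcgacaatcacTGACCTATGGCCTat

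The single half-sites are shown with their flanks to compare their surroundings, with the half-site in capitals; they start at bases -9 (Fabp1), -228 (Cd36) and -220 (Slc27a2). Their positions are chr6:71199858-71199887 (plus strand), chr5:17836107-17836136 (minus strand, inside the longer GENCODE model of Cd36) and chr2:126552792-126552821 (plus strand, inside a first exon of a longer GENCODE transcript of Slc27a2).
Fabp1 half-site: ggcaacagtgggTGACCTggcaggcagagc
Cd36 half-site: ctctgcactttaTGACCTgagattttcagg
Slc27a2 half-site: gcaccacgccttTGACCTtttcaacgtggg
None of these 3 half-sites is part of either repeat. These matches describe the letters of the promoters, and binding of any factor was not measured in these livers. Of the 3 genes with a half-site, Fabp1 and Slc27a2 were higher at the unadjusted threshold and Cd36 was not, and of the genes searched without a match, Slc27a1 and Acsl1 were higher and Acsl5 lower.

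Fabp2 (chr3:122895072-122899506, plus strand) was at 89.4, 99.0, 134 and 118 CPM in control livers 1 to 4 and at 110, 96.0, 98.7 and 116 CPM in Smo-KO livers 1 to 4. Every Smo-KO liver lay within the control range (log2 fold change -0.07, SE 0.12, unadjusted p = 0.604, adjusted p = 0.852 in edgeR). Of 6 enterocyte markers, Sis, Cdx1, Cdx2 and Alpi had no read in any liver, and Vil1, the most abundant, averaged 1.14 CPM.

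Fabp4 (chr3:10204088-10208576, minus strand), the carrier of adipocytes, macrophages and some endothelial cells, was at 8.17, 8.60, 12.5 and 12.1 CPM in control livers 1 to 4 and at 15.1, 10.6, 9.39 and 15.9 CPM in Smo-KO livers 1 to 4. Smo-KO livers 1 and 4 were above every control and Smo-KO livers 2 and 3 among them (log2 fold change 0.30, SE 0.20, unadjusted p = 0.157, adjusted p = 0.530 in edgeR). It was 0.18 without Smo-KO liver 4, and leaving out any 1 of the 8 livers gave values of up to 0.42 (without Smo-KO liver 3). Of 7 adipocyte markers, Lep had no read in any liver, and Adipoq, Plin1, Retn and Cfd were each at 3 reads or fewer in every liver. The other markers, Adrb3 and Lipe, were present and higher in Smo-KO livers (log2 0.78, unadjusted p = 0.0170, and 0.44, unadjusted p = 0.0083, edgeR). Of all genes tested, 6.7% were higher at an unadjusted p under 0.05, and Fabp4 was not among them. Both markers were lowest of the controls in liver 3, where Fabp4 was highest. In Smo-KO livers both markers and Fabp4 were highest in liver 4. Lipe, hormone-sensitive lipase, was the most abundant of the list at 14.9 CPM over the 8 livers, and the part of adipocytes in the Fabp4 values was not tested.

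Over the 10 genes of the FABP family listed in the files, Fabp1 made up 92.5 ± 1.22% of the summed CPM per kb (merged exons) in control and 93.4 ± 1.56% in Smo-KO livers (n = 4 each, SD). The family sum was 2103, 1939, 2078 and 2131 CPM per kb in control livers 1 to 4 and 1954, 2428, 3167 and 2520 CPM per kb in Smo-KO livers 1 to 4. It therefore followed Fabp1, with Smo-KO liver 3 highest.

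Slc27a1 (FATP1; chr8:71568882-71587302, plus strand), an insulin-responsive transporter of muscle and fat, was at 19.4, 19.6, 14.8 and 15.3 CPM in control livers 1 to 4 and at 22.5, 22.5, 25.5 and 26.8 CPM in Smo-KO livers 1 to 4. All 4 Smo-KO livers were above all 4 controls. The log2 fold change was 0.49 (SE 0.12, unadjusted p = 0.0016, adjusted p = 0.151 in edgeR), and the means were 17.3 ± 2.57 in control and 24.3 ± 2.17 CPM in Smo-KO livers (n = 4 each, SD). DESeq2 gave it an adjusted p of 0.0421, the lowest of its alternatives, which reached up to 0.316. Its read counts were 149 to 187 in control and 206 to 251 in Smo-KO livers. Of 6 skeletal muscle markers, Myh1, Myh4 and Mb had no read in any liver, and Acta1, the most abundant, averaged 0.697 CPM. Its mean was 1.26 CPM in control livers (4, 3, 26 and 17 reads in livers 1 to 4). In Smo-KO livers it was 0.135 CPM (2, 0, 1 and 2 reads in livers 1 to 4), and Acta1 did not pass the filter on low counts.

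Slc27a2 (FATP2; chr2:126552407-126588243, plus strand) was at 808, 768, 698 and 720 CPM in control livers 1 to 4 and at 702, 1033, 1078 and 844 CPM in Smo-KO livers 1 to 4. As for Fabp1, Smo-KO livers 2, 3 and 4 were above every control, and Smo-KO liver 1 was not. The log2 fold change was 0.29 (SE 0.13, unadjusted p = 0.0407, adjusted p = 0.336 in edgeR), 0.40 (unadjusted p = 0.0031) without Smo-KO liver 1 and 0.20 (unadjusted p = 0.135) without Smo-KO liver 3. Slc27a2 missed the unadjusted threshold in 5 of the 8 fits that left out 1 liver (control livers 2, 3 and 4 and Smo-KO livers 2 and 3). The fit that blocked same-numbered livers missed it too (log2 fold change 0.27).

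Slc27a4 (FATP4; chr2:29802634-29817522, plus strand), a transporter of the endoplasmic reticulum and intestine, was at 56.5, 55.2, 55.4 and 56.7 CPM in control livers 1 to 4 and at 56.4, 55.8, 50.5 and 54.0 CPM in Smo-KO livers 1 to 4. The livers lay close together, with Smo-KO liver 3 lowest (log2 fold change -0.05, SE 0.08, unadjusted p = 0.585, adjusted p = 0.841 in edgeR). Its SD of log2 CPM within groups was 0.05, and 0.901% of 2220 genes of like abundance had a smaller one.

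Slc27a5 (FATP5; chr7:12988346-12998192, minus strand) was at 302, 317, 252 and 255 CPM in control livers 1 to 4 and at 252, 344, 265 and 257 CPM in Smo-KO livers 1 to 4. Smo-KO liver 2 was highest, and the other Smo-KO livers lay near control livers 3 and 4 (log2 fold change -0.01, SE 0.12, unadjusted p = 0.937, adjusted p = 0.984 in edgeR). As shares of the summed CPM per kb (merged exons) of the 6 SLC27 genes, Slc27a2 made up 60.3 ± 1.42% in control and 64.6 ± 3.70% in Smo-KO livers, and Slc27a5 34.8 ± 1.58% and 30.7 ± 3.21% (n = 4 each, SD). The share of Slc27a2 was 60.5, 58.2, 60.9 and 61.4% in control livers 1 to 4 and 60.8, 63.4, 69.6 and 64.6% in Smo-KO livers 1 to 4, with Smo-KO liver 1 again within the control range.

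Acsl1 (chr8:46471037-46536051, plus strand), which activates long-chain fatty acids at the mitochondrial surface and endoplasmic reticulum, was at 432, 346, 358 and 364 CPM in control livers 1 to 4 and at 364, 527, 705 and 487 CPM in Smo-KO livers 1 to 4. Smo-KO livers 2, 3 and 4 were above every control, and Smo-KO liver 1 was among them. The log2 fold change was 0.47 (SE 0.16, unadjusted p = 0.0118, adjusted p = 0.241 in edgeR), 0.62 (unadjusted p = 0.0006) without Smo-KO liver 1 and 0.29 (unadjusted p = 0.0438) without Smo-KO liver 3. Its SD of log2 CPM within groups was 0.29, and 93.5% of 308 genes of like abundance had a smaller one.

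Acsl5 (chr19:55251938-55297720, plus strand), a synthetase of mitochondria and endoplasmic reticulum linked to triglyceride synthesis, was at 302, 302, 344 and 346 CPM in control livers 1 to 4 and at 273, 262, 258 and 257 CPM in Smo-KO livers 1 to 4. All 4 Smo-KO livers were below all 4 controls, and they differed little among themselves, with a coefficient of variation of 2.78% beside 7.70% in controls. The log2 fold change was -0.30 (SE 0.08, unadjusted p = 0.0035, adjusted p = 0.175 in edgeR). Acsl5 overlaps Zdhhc6 on the opposite strand, and the strand setting of the counting is not given in the sources used here, so reads of the overlap cannot be told apart. The same holds for Slc27a2 and Acsl1, which overlap Gm26697 and Gm45244 on the opposite strand, neither of which was analysed here. Zdhhc6 itself was at 82.9 ± 7.94 CPM in control and 79.9 ± 1.08 CPM in Smo-KO livers (n = 4 each, SD; log2 fold change -0.05, edgeR unadjusted p = 0.549).

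Acsl1 and Acsl5 thus lay on opposite sides of the control mean in Smo-KO livers 2, 3 and 4. The ratio of Acsl1 to Acsl5 CPM, which does not depend on library scaling, was 1.43, 1.15, 1.04 and 1.05 in control livers 1 to 4 and 1.33, 2.01, 2.73 and 1.90 in Smo-KO livers 1 to 4. Smo-KO livers 2, 3 and 4 were above every control, and Smo-KO liver 1 fell below control liver 1.

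**Figure D3:**
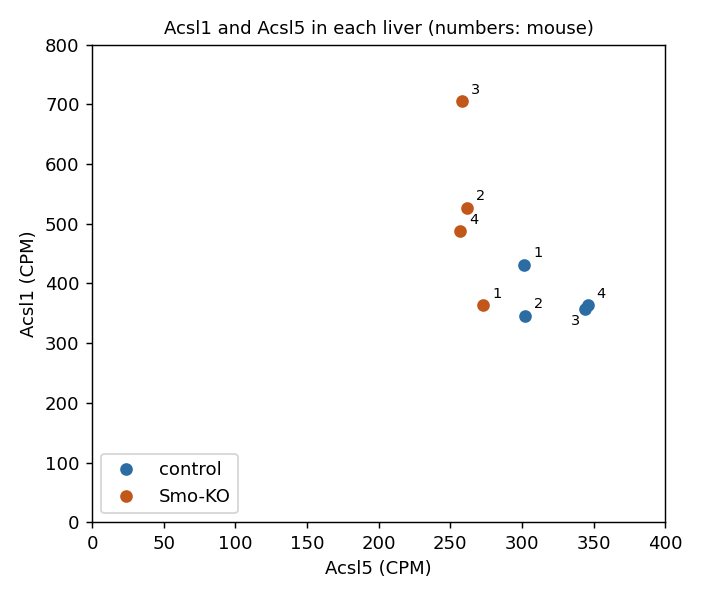
Acsl1 CPM against Acsl5 CPM in each of the 4 control (blue) and 4 Smo-KO (orange) livers, with the mouse number beside each point and both axes starting at 0. Along the Acsl5 axis the groups are apart (257 to 273 CPM in Smo-KO, 302 to 346 CPM in control), whereas along the Acsl1 axis Smo-KO liver 1 (364 CPM) lies among the controls.

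Across the livers, the Smo-KO group was not uniform in these genes. Smo-KO liver 1, which had the highest Smo of its group, had the lowest Fabp1, Slc27a2 and Acsl1 of its group, and Smo-KO liver 3 had the highest of all 3. Smo-KO liver 1 also had the highest sums of sinusoidal endothelial (425 CPM), vascular endothelial (411 CPM) and Kupffer cell markers (2563 CPM) of the 8 livers, and their part in the pattern was not tested. For Acsl1 the log2 ratios to the control mean were -0.04, 0.49, 0.91 and 0.38 in Smo-KO livers 1 to 4, and for Smo -0.57, -1.10, -0.98 and -0.94. Slc27a1 and Acsl5 did not share this pattern: in Smo-KO liver 1 they were already at 0.38 and -0.24. With 4 mice a group, no relation to Smo across mice was calculated. Among the controls, livers 1 and 2 differed from livers 3 and 4 in several genes, with higher Slc27a1, Slc27a2 and Slc27a5 and lower Acsl5, Fabp2 and Fabp4, and the labels name no batch that would separate them.

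**Figure D4:**
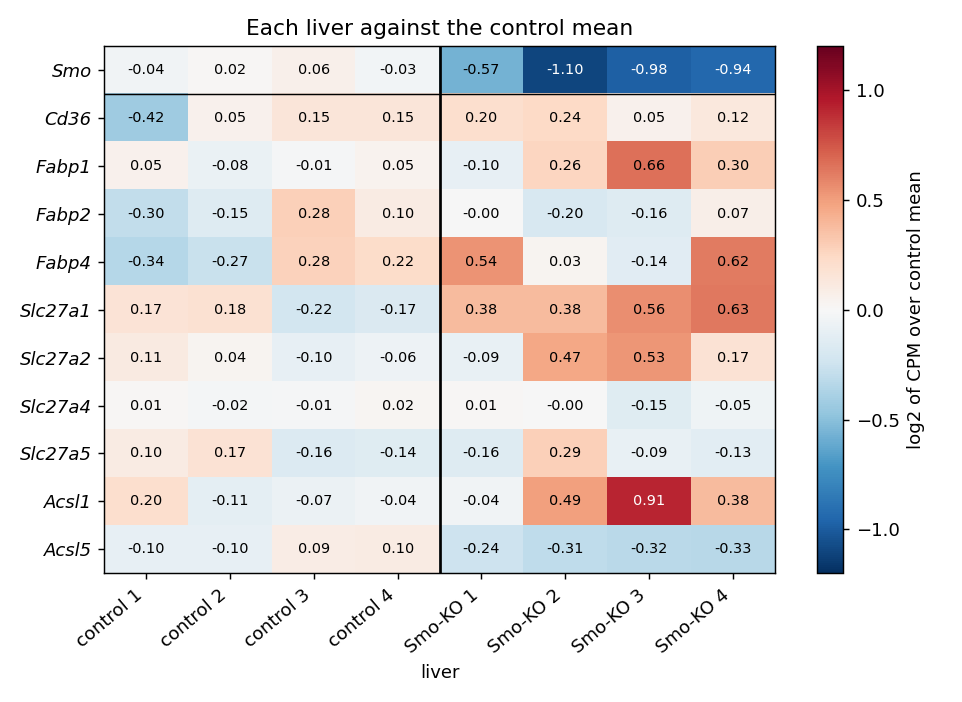
Log2 ratio of CPM to the control mean for Smo and the 10 genes (rows) in each of the 8 livers (columns), with the value in each cell, red above and blue below the control mean. Smo-KO liver 1 is near 0 for Fabp1, Slc27a2 and Acsl1 (-0.10, -0.09 and -0.04) and Smo-KO liver 3 is at 0.66, 0.53 and 0.91.

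Of 40 other genes of the pathway, in 3 lists, 34 could be tested: 4 were higher in Smo-KO livers at an unadjusted p under 0.05, 1 was lower, and none passed an adjusted p of 0.05 in edgeR. This share is near the 13.8% of all genes tested, so nothing particular to the lists is read from the count. Their median log2 fold change was 0.02. Among 14 genes of the same families, 8 were tested, and Fabp6 and Acsl6 had no read in any liver. Acsl3, a synthetase of lipid droplets and endoplasmic reticulum, was at 36.2, 28.2, 34.3 and 32.3 CPM in control livers 1 to 4 and at 24.3, 23.8, 14.5 and 23.0 CPM in Smo-KO livers 1 to 4. Its groups did not overlap (log2 fold change -0.61, SE 0.15, unadjusted p = 0.0013, adjusted p = 0.146 in edgeR; lower in 4 of 4 Smo-KO livers), as those of Acsl5 did not. DESeq2 gave Acsl3 an adjusted p of 0.0266, the lowest of its alternatives, which reached up to 0.285.

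Fabp7, a carrier best known from the brain, was at 35.0, 31.5, 50.5 and 34.3 CPM in control livers 1 to 4 and at 52.5, 38.6, 50.5 and 58.7 CPM in Smo-KO livers 1 to 4. These groups overlapped (log2 fold change 0.40, SE 0.16, unadjusted p = 0.0242, adjusted p = 0.288 in edgeR). Fabp7 lost the unadjusted threshold when any of several mice was left out, with an unadjusted p of up to 0.0817 in edgeR. Scarb1, the HDL receptor and the most abundant gene of this list, had a log2 fold change of -0.03 (SE 0.11, unadjusted p = 0.793).

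Among 15 genes of fatty acid supply and acyl-CoA trafficking, 2 were higher at the unadjusted threshold. Lpl, the lipase that frees fatty acids from circulating triglyceride, was at 223, 248, 303 and 259 CPM in control livers 1 to 4 and at 322, 286, 358 and 351 CPM in Smo-KO livers 1 to 4 (log2 fold change 0.35, SE 0.11, unadjusted p = 0.0073, adjusted p = 0.216 in edgeR). Angptl4, a secreted inhibitor of that lipase and a known PPAR target, was at 219, 200, 140 and 245 CPM in control livers 1 to 4 and at 239, 315, 326 and 251 CPM in Smo-KO livers 1 to 4 (log2 fold change 0.49, SE 0.16, unadjusted p = 0.0080, adjusted p = 0.220 in edgeR). Both overlapped between groups, Lpl by control liver 3 alone and Angptl4 by control liver 4 alone. Got2, a mitochondrial aminotransferase also described as a plasma membrane fatty acid-binding protein, had a higher level in each control than in any Smo-KO liver, with a small difference (log2 fold change -0.16, SE 0.09, unadjusted p = 0.0985). Scp2, a peroxisomal thiolase and lipid transfer protein and the most abundant of the list, had a log2 fold change of 0.03 (SE 0.09, unadjusted p = 0.765).

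Among 11 transcriptional regulators, Nr1i3, the xenobiotic receptor CAR, was at 172, 135, 84.8 and 158 CPM in control livers 1 to 4 and at 176, 173, 185 and 209 CPM in Smo-KO livers 1 to 4. Every Smo-KO liver was above every control, although control liver 1 came close (log2 fold change 0.44, SE 0.17, unadjusted p = 0.0244, adjusted p = 0.288 in edgeR). The fold change rested in part on the low control liver 3, without which it was 0.27, and without Smo-KO liver 4 the unadjusted p in edgeR was 0.0682. Ppara and Pparg themselves had log2 fold changes of 0.23 (SE 0.13, unadjusted p = 0.105) and 0.01 (SE 0.10, unadjusted p = 0.959). These values are given because both receptors are known regulators of several of the 10 genes, outside the rule by which other genes were named. Cebpa, the most abundant of the list, had a log2 fold change of 0.03 (SE 0.09, unadjusted p = 0.734).

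**Figure D5:**
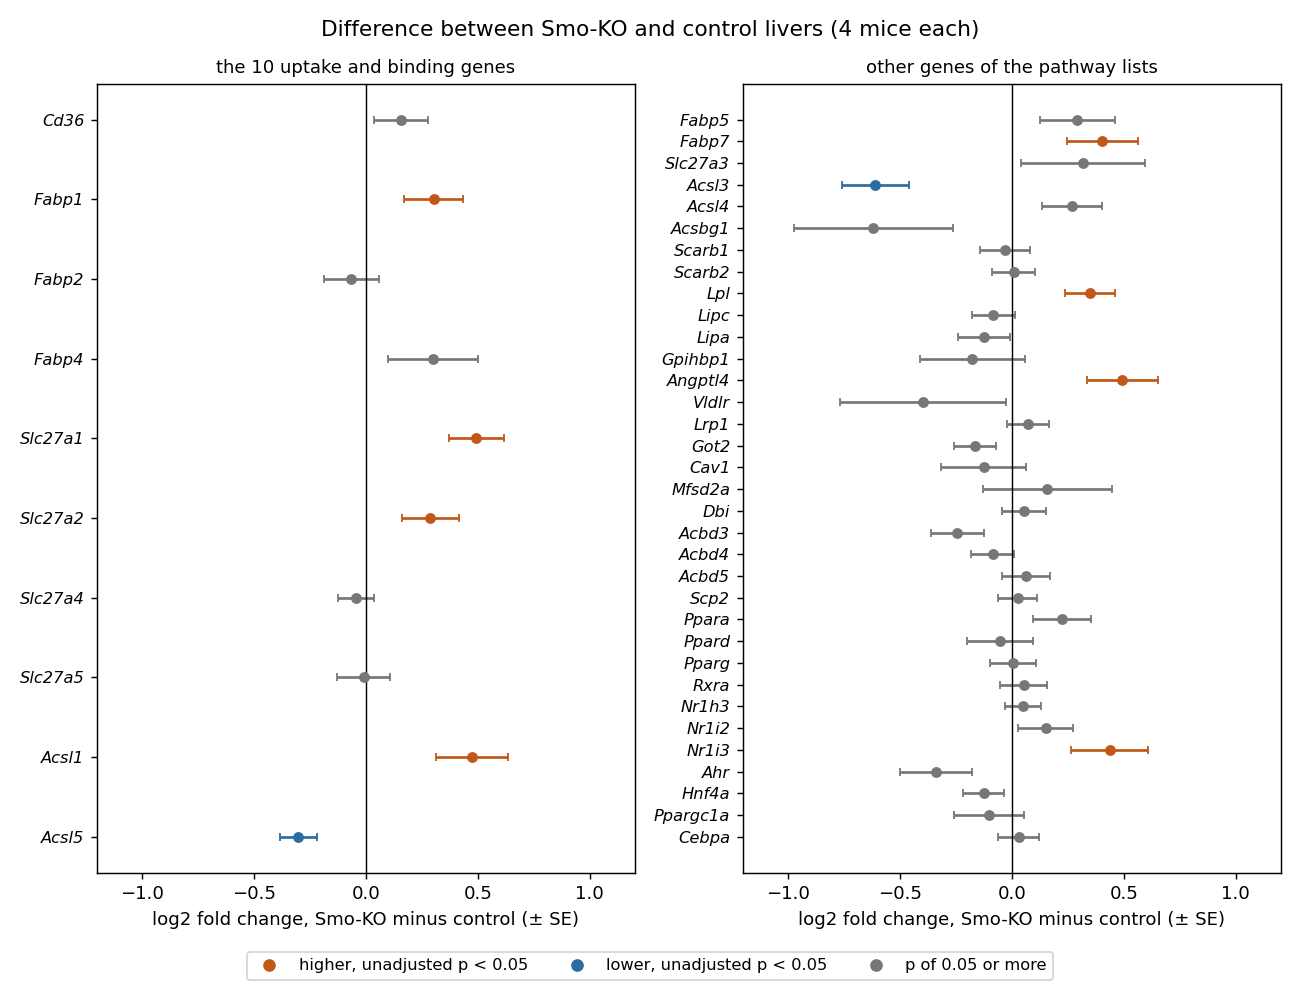
Log2 fold change of Smo-KO over control ± SE (x axis, edgeR, 4 livers a group) for the 10 genes (left) and the 34 tested genes of the pathway lists (right), with genes past an unadjusted p of 0.05 in orange (higher) or blue (lower) and the others in gray. Slc27a1 (0.49) and Acsl1 (0.47) lie farthest to the right on the left side, Acsl5 (-0.30) farthest to the left, and on the right side Acsl3 (-0.61) is the colored point below 0.

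Because whole liver was sequenced, fewer cells of a type and less RNA per cell cannot be told apart. Hepatocyte markers were abundant, with Alb, the most abundant, at 15954 CPM over the 8 livers, but Ass1, a urea cycle enzyme of hepatocytes, was listed at 0 or 1 read per liver. Why was not tested, so a gene listed at 0 here is one to which no reads were assigned, and its RNA need not be absent. Of the 9 hepatocyte markers tested, 2 were lower at the unadjusted threshold (Cps1 and Fga) and none higher. Of all genes tested, 7.15% were lower and 6.7% higher at it. Fabp1, Slc27a2 and Acsl1 were higher at that threshold, but Fabp1 and Slc27a2 missed it in most fits that left out 1 liver. The hepatocyte sum was 48477, 43039, 43946 and 44719 CPM in control livers 1 to 4 and 43721, 44292, 40448 and 40625 CPM in Smo-KO livers 1 to 4. The part of hepatocyte content in the values of the 10 genes was not tested.

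Endothelial and macrophage markers, which matter for Cd36 and Fabp4, varied between livers. For 10 sinusoidal endothelial markers, of which Stab1 was the most abundant, the sum was 331, 332, 366 and 375 CPM in control livers 1 to 4 and 425, 217, 286 and 354 CPM in Smo-KO livers 1 to 4, with Dnase1l3 and Gata4 lower at the unadjusted threshold and none higher. The 10 vascular endothelial markers, led by Eng, summed to 381, 322, 375 and 388 CPM in control livers 1 to 4 and to 411, 223, 280 and 348 CPM in Smo-KO livers 1 to 4, with Pecam1 lower and none higher. Of all genes tested, 7.15% were lower at the same threshold. Smo-KO livers 2 and 3, lowest in both sums, were also the lowest of their group in Fabp4, whereas Cd36 was highest of all livers in Smo-KO liver 2. No endothelial marker was at 0 in all livers, and the part of these cells in the values was not tested.

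The 10 markers of infiltrating and lipid-associated macrophages, led by Lyz2, summed to 1288, 1489, 1368 and 1475 CPM in control livers 1 to 4 and to 1576, 1681, 1828 and 1512 CPM in Smo-KO livers 1 to 4. The sums did not overlap between groups, 10 of 10 fold changes were positive, and 3 markers (Trem2, Cd9 and Lyz2) were higher at the unadjusted threshold, as were 6.7% of all genes tested. Trem2, a lipid receptor of macrophages, had a log2 fold change of 0.75 (SE 0.13, edgeR adjusted p = 0.0957; higher in 4 of 4 Smo-KO livers), and DESeq2 gave it an adjusted p of 0.000156, the lowest of its alternatives, which reached up to 0.210. Of the 10 Kupffer cell markers, led by Cd5l, none was past the threshold in either direction, and their sum was 1855, 1718, 2454 and 2152 CPM in control livers 1 to 4 and 2563, 1718, 1962 and 2062 CPM in Smo-KO livers 1 to 4. The part of macrophages in the values of the 10 genes was not tested.

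Of 8 stellate cell markers, led by Dcn, Col1a1 and Ngfr were lower at the unadjusted threshold and none higher, beside 7.15% lower of all genes tested. Ngfr had a log2 fold change of -0.96 with an adjusted p of 0.140 in edgeR and of 0.0126 in DESeq2, the lowest of its alternatives, which reached up to 0.282. Of 4 cholangiocyte markers tested, led by Sox9, none was past it. The calls of 6 markers were lost when 1 or another mouse was left out, the highest unadjusted p in edgeR being 0.0950 for Fga, 0.0647 for Dnase1l3, 0.113 for Gata4, 0.0753 for Pecam1, 0.113 for Cd9 and 0.0638 for Adrb3.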

How the data were processed

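The authors deposited raw read counts per gene symbol, 1 file per liver. The submitters' processing notes name fastp, STAR 2.7.5, featureCounts 2.0.1 and GRCm38, whereas the files end in 5 entries of the htseq-count kind that name no gene; these were left out (no-feature reads were 7.56 to 9.68% of each total, ambiguous reads 2.45 to 2.61%). The annotation and strand setting are not given in the sources used here; GENCODE M21 gave loci and lengths. Counts were filtered with filterByExpr, scaled by TMM and tested with edgeR 4.0.16 (glmQLFit and glmQLFTest, R 4.3.3) over all genes, with Benjamini-Hochberg adjustment and no covariates; CPM use the same scaling. DESeq2 1.42.0, other scalings and filters, a replicate block and each mouse left out were alternatives. On simulated counts 200 genes were changed, some of them 2-fold and the others by less. Of those changed 2-fold, 85.8% were recovered over a median of 12895 genes, with 7.26% false calls. Recovery of the smaller changes is not given here, and the changes of the 10 genes were all smaller than 2-fold. The labels number the samples of each group from 1 to 4 and give no other record of the mice, so p-values measure the spread between these samples. No libraries were near copies. The genes and lists were chosen with earlier results of these data known. Named were the 10 genes, Smo, pathway genes with an unadjusted p under 0.05 or groups apart, the most abundant gene of each list, markers at 0 and the nearest patterns; other names were added after their values were seen.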

Additional observations from a re-analysis of the deposited data

Results flagged for a closer look

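In 40 groups of 4 livers (20 genes, control and Smo-KO), the highest or lowest liver was set against the others by the ratio of its gap to the range (Dixon's criterion at 95%), and 2 groups passed it, which is the number that chance gives. Slc27a5 in Smo-KO liver 2 was 344 CPM, while the other Smo-KO livers were between 252 and 265 CPM. Acsl3 in Smo-KO liver 3 was 14.5 CPM, while the other Smo-KO livers were between 23.0 and 24.3 CPM, all below the controls.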

How the results depend on the processing

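Under 14 alternatives, 265 of 280 values for 20 genes kept their direction and their side of an adjusted p of 0.05. Over all genes the count of calls was 0 in edgeR, also with RLE or upper-quartile factors and under a filter of 10 counts per liver; it was 163 with DESeq2, 61 with no filter, 8 with a replicate block, and 0 to 78 with a mouse left out (78 without Smo-KO liver 1, 5 without control liver 1, 4 without Smo-KO liver 3). Of the 10 genes, 5 were past the unadjusted threshold, 3 with the replicate block (beside 16.3% of all genes) and 3 to 5 with a mouse left out (beside 9.50 to 17.8%); Slc27a1, Acsl1 and Acsl5 were past it under every alternative, Fabp1 and Slc27a2 were not. The adjusted p of Smo passed 0.05 with DESeq2 (log2 fold change -0.87, adjusted p = 0.0061), with no filter (-0.88, 0.0385) and without Smo-KO liver 1 (-0.997, 0.0266), with a leave-one-out range of -0.997 to -0.81. With a mouse left out, signs turned for Fabp2 (-0.15 to 0.047), Slc27a5 (-0.12 to 0.056), Scarb1 (-0.094 to 0.059), Scp2 (-0.012 to 0.076) and Cebpa (-0.0028 to 0.10). The causes were not tested beyond the smaller number of mice.

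The replicate numbers share no stated origin, so the labels give no basis for the block. Deviations of log2 CPM from the group means had correlations of 0.10, 0.19, 0.06 and 0.11 between same-numbered livers. Livers of different numbers were not compared, so these values cannot show whether same-numbered livers go together. A shared origin was not tested. The length of the longest protein-coding transcript, chosen after seeing the data, moved the control levels per kb of 6 genes by more than 1 SD between livers, and the longest transcript those of 5 genes (not Fabp4). Depth limits Smo and Fabp4, with 35 to 149 reads a liver.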

Other observations

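For the 2 genes that varied most over the 8 livers, Acsl1 and Fabp4, the 3 genes with the nearest profile were found among 9337 genes of at least 10 CPM, as the root-mean-square difference of centered log2 CPM over the 8 livers. Nearest to Acsl1 was Hsd17b11, a lipid droplet-associated dehydrogenase (difference 0.08), at 274, 252, 226 and 230 CPM in control livers 1 to 4 and at 241, 347, 434 and 298 CPM in Smo-KO livers 1 to 4. It has the low Smo-KO liver 1 and the high Smo-KO liver 3 of Acsl1. Larp4b (difference 0.10) and Keg1 (difference 0.11) followed. Nearest to Fabp4 were Ccr3, Fam126a and Tbxas1, the thromboxane synthase of macrophages and platelets, at differences of 0.15, 0.15 and 0.17. With 8 livers and 9337 genes to choose from, near profiles could be found for many genes, which was not tested, and these are a description.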
